A study of Mus musculus with 50 samples.

Results

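The 7 genes that encode the subunits of the NMDA receptor (Grin1, Grin2a, Grin2b, Grin2c, Grin2d, Grin3a and Grin3b) were followed in frontal cortex of wild-type (WT) and Setd1a+/- (Het) mice across 5 ages. They were taken by name from the 55487 genes counted, 21897 of which are annotated as protein-coding, and all 7 were among the 16330 protein-coding genes tested. Messenger RNA was captured by poly-A and sequenced in 50 libraries, with 5 WT and 5 Het libraries per age. The ages are embryonic days E14 and E18 and postnatal days P7, P35 and P70. Het mice carry 1 wild-type copy of Setd1a and 1 copy of the tm1d loss-of-function allele, which was made from a knockout-first allele and is constitutive. WT and Het mice came from crosses of heterozygous males to wild-type females, so that mice of both genotypes had a heterozygous father. Labels give the strain as C57BL/6NTac, whereas the methods describe mixed C57BL/6NTac and C57BL/6J, male subjects, and embryonic ages later than the labels by a fraction of a day. Tissue was bilateral frontal cortex after birth and the frontal part of the brain in embryos. Each library came from a separate animal, although littermates were used and no label ties animals to litters. Bulk tissue was sequenced, so fewer cells of a type and less RNA per cell cannot be told apart in any value given here.

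NMDA receptors are glutamate-gated channels that let calcium into neurons when glutamate and a co-agonist, glycine or D-serine, are bound while the membrane is depolarised. Every functional receptor contains the GluN1 subunit encoded by Grin1, which binds the co-agonist, together with glutamate-binding GluN2 subunits encoded by Grin2a to Grin2d or glycine-binding GluN3 subunits encoded by Grin3a and Grin3b. In rodent forebrain the change from GluN2B-rich receptors before and around birth to receptors with more GluN2A in the mature cortex is the best-known developmental change of this family, and it shortens the synaptic current.

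The 7 genes encode related proteins, and identical runs decide whether a read can be assigned to more than one family member. Over all annotated transcripts, the longest run of bases that 2 members had in common was 13 to 34 bases across the 21 pairs, with a median of 19, and exceeded 30 bases in 2 pairs. Read pairs of 150 bp are several times longer than these runs.

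Total counts per library were 35507165 to 43907318. Emx1, Tbr1 and Neurod6, 3 markers of cortical cells, were all detected in each of the 50 libraries. Gene-level counts of Setd1a, the targeted gene, were called higher in libraries labelled Het (log2 fold change 0.10, SE 0.025, adjusted p = 0.00679, edgeR), which goes against the direction of loss of 1 copy. Its mean in Het libraries divided by that in WT libraries was 1.06 to 1.14 from E14 to P35 and 0.982 at P70, and the genotypes did not overlap at P7 (10.3 to 11.22 RPKM in WT, 11.24 to 12.3 RPKM in Het). Counts by exon were not analysed here, so the gene's counts do not check the genotype, and WT and Het below name libraries as labelled. The P7 library of WT replicate 2 was unlike the remaining 9 of that age. Its summed level of these 3 markers was 132.01 CPM (counts scaled to library size) against 309.5 to 399 CPM in the others, and its 4 oligodendrocyte markers, 1214 CPM against 114 to 170 CPM. It also held 96.4 CPM of 3 cerebellar granule cell markers, all detected, against 1.57 to 3.45 CPM, 140 CPM of 3 thalamus markers against 25.8 to 30.4 CPM, and 608 CPM of 3 choroid plexus markers against 1.19 to 2.10 CPM. It was further the highest of P7 for 5 progenitor markers (279 CPM, others 101 to 165), 6 astrocyte markers (1593 CPM, others 1138 to 1361) and 4 hindbrain markers (6.67 CPM, others 0 to 0.444), and the lowest for 4 striatum markers (39.1 CPM, others 42.2 to 103.0). Differences of Grin2b and Grin2c at P7 are given with and without it. Xist, a transcript of female cells, had 60159 counts in WT replicate 5 of E14 and 55644 counts in WT replicate 2 of E18, against at most 27 elsewhere, although the methods describe males.

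Levels are given as RPKM, a count scaled for exon length and, after TMM scaling, for library size. The length is that of merged exons over all annotated transcripts. For Grin1 it is 9700 bases, against 4276 in its transcript with the longest coding sequence, and for Grin2b 24842 against 24060. The order of genes within an age, above all that of Grin1 and Grin2b at E14, thus depends on this length. Comparing 1 gene between ages does not. The order of the 7 genes changed with age. At E14 the median level over the 10 libraries was highest for Grin2b (6.19 RPKM), followed by Grin1 (3.30), Grin3b (3.14), Grin2d (2.03), Grin3a (1.23), Grin2c (0.490) and Grin2a (0.0744). The ranges of neighbours in this order overlapped from Grin2b down to Grin3a, and only Grin2c and Grin2a lay apart from the gene above them. At P7 Grin1 led (36.1 RPKM), ahead of Grin2b (25.5), Grin2d (19.7), Grin3a (8.94), Grin2a (2.26), Grin3b (2.03) and Grin2c (1.49). The ranges of Grin2b and Grin2d overlapped at this age, as did those of neighbours among the lowest 3 genes. The overlap of Grin2b and Grin2d rested on WT replicate 2, with 12.4 RPKM of Grin2b. The next lowest library for Grin2b (22.348 RPKM) was above the highest for Grin2d (22.075 RPKM). At P70 the order was Grin1 (66.7 RPKM), Grin2b (23.5), Grin2c (15.9), Grin2a (8.74), Grin2d (4.76), Grin3a (3.27) and Grin3b (2.16). At P70 the ranges of Grin2b and Grin2c overlapped, and so did those of Grin3a and Grin3b, while the order of the 7 medians was the same as at P35. The summed level of the 7 genes increased from 17.4 ± 4.63 RPKM (SD, n = 10) in E14 libraries to 43.4 ± 3.18 RPKM by E18, 94.3 ± 7.75 RPKM by P7 and 131.4 ± 3.95 RPKM by P35, and the P70 value was 124.6 ± 5.28 RPKM. Markers of other cell types moved over the same ages, with the 5 progenitor markers at a summed 686 to 965 CPM in E14, 226 to 370 CPM in E18, 101 to 279 CPM in P7 (101 to 165 CPM without WT replicate 2), 69.3 to 94.5 CPM in P35 and 62.5 to 86.6 CPM in P70 libraries. Their part in the rise of the family, and of Grin1, Grin2a and Grin2b within it, was not tested.

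**Figure D1:**
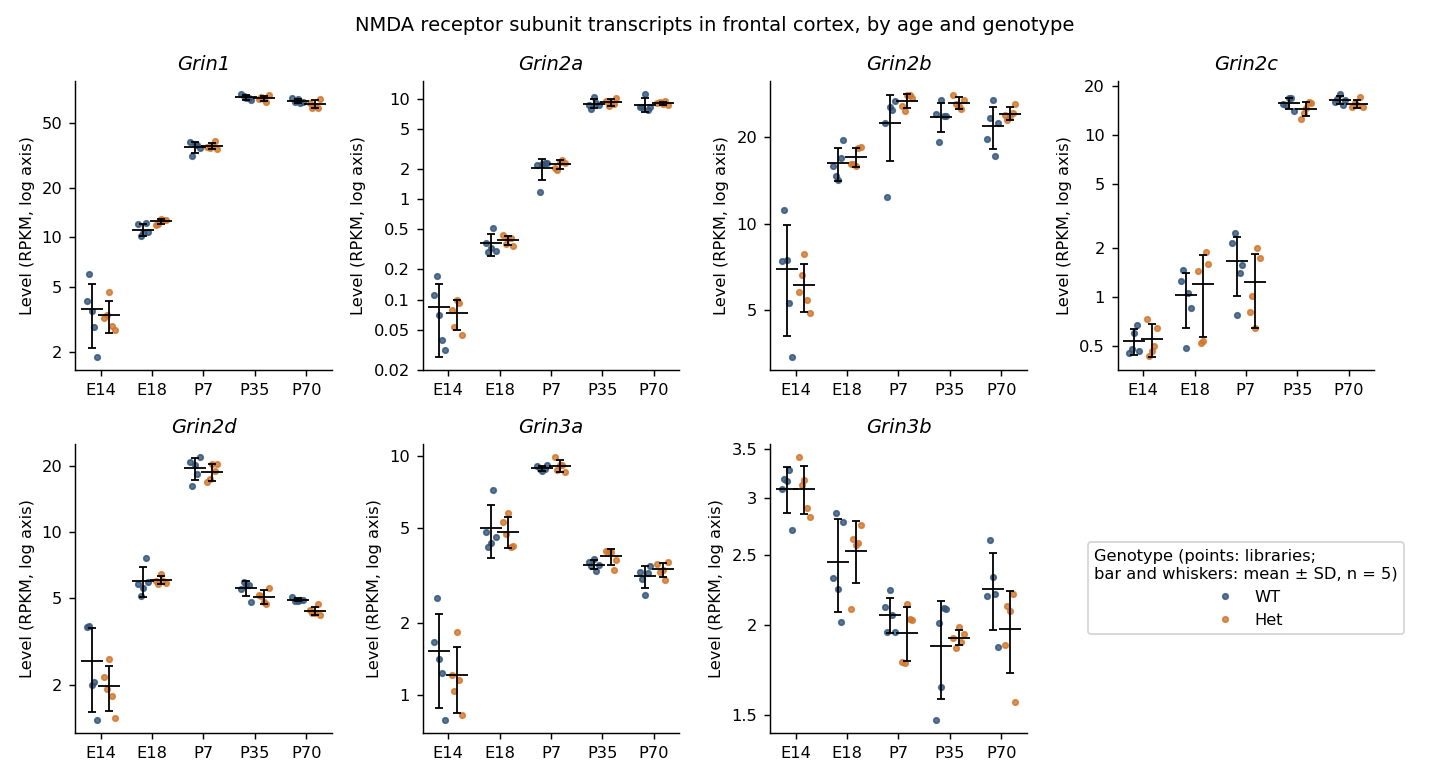
Level of each subunit gene (RPKM, log axis, a separate scale for each gene) by age in WT and Het mice, with points for libraries and a bar with whiskers for mean and SD (n = 5). Grin1 and Grin2a climb through P35, Grin2c climbs mainly between P7 and P35, Grin2d and Grin3a peak at P7, and Grin3b stays between 1.48 and 3.42 RPKM.

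Steps between consecutive ages were tested over both genotypes in the edgeR quasi-likelihood fit of all 16330 genes, with p adjusted by the Benjamini-Hochberg method, and a gene was called at an adjusted p under 0.05. From E14 to E18 all 7 genes were called, 6 higher and 1 lower, where 73.4% of tested genes were called, 36% higher and 37.4% lower. From E18 to P7, 6 were called, 5 higher and 1 lower, against 76.1% of tested genes, 37.9% higher and 38.2% lower. From P7 to P35, 5 were called, 3 higher and 2 lower, against 76.1%, 38% higher and 38.1% lower. Most tested genes were thus called at each of these steps, so that a call by itself sets no member apart. The share of members called higher was above that of tested genes at all 3 steps, least so from P7 to P35, a description of 7 genes with no test. What follows describes direction, size and timing. From P35 to P70 edgeR called 0 members, with 1 at an unadjusted p under 0.05 (Grin3b), where 9.74% of tested genes were called. From E14 to P70 all 7 were called, against 89.8% of tested genes.

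Grin1 (ENSMUSG00000026959, chr2:25291181-25319187, minus strand, 9700 exonic bases) encodes the obligatory GluN1 subunit. Its level rose at each step up to P35 and was higher at P70 than at E14 by a log2 fold change of 4.25 (SE 0.11, adjusted p = 3.56e-34, edgeR). At E14 the 5 WT libraries held 4.08, 6.01, 3.58, 2.83 and 1.86 RPKM and the 5 Het libraries 3.24, 3.37, 4.63, 2.87 and 2.70 RPKM. At P35 they held 75.0, 73.4, 70.7, 71.2 and 69.1 RPKM in WT and 70.4, 72.4, 70.3, 67.2 and 74.2 RPKM in Het. The lowest library at P35 was thus far above the highest at E14, and the genotypes overlapped at both ages. The spread was wide at E14, from 1.86 to 6.01 RPKM, and narrow at P35. The 10 libraries had a median of 12.1 RPKM (10.2 to 12.98) at E18, 36.1 (31.3 to 38.96) at P7 and 66.7 (61.8 to 70.8) at P70. The log2 step was 1.75 (SE 0.10, adjusted p = 1.07e-19) from E14 to E18, 1.60 (SE 0.098, adjusted p = 4.82e-19) to P7, 0.99 (SE 0.097, adjusted p = 1.43e-12) to P35 and -0.10 (SE 0.096, adjusted p = 0.593) to P70. Counting was not strand-aware, and 13.5% of the exonic bases of Grin1 are shared with its antisense gene Grin1os. At the mean density of Grin1os, the counts on shared bases would be a median of 19.2 to 20.3% of the Grin1 count at the 5 ages. A shared fragment was counted for both genes, so that density can itself include fragments of Grin1. Reads of both genes on shared bases cannot be told apart, and how many are antisense is not known.

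The wide spread at E14 was common to most of the family. WT replicate 2 had the highest level of Grin1, Grin2a, Grin2b, Grin2d and Grin3a among the 10 libraries of E14, and WT replicate 5 the lowest level of the same 5 genes. The summed level of the 5 progenitor markers (Pax6, Sox2, Eomes, Hes5 and Mki67), all detected, was 686 to 965 CPM in WT and 732 to 960 CPM in Het libraries. It was lowest in WT replicate 2 (686 CPM) and highest in WT replicate 5 (965 CPM). Other markers also differed between these 2 libraries, in both directions. The summed level of 4 blood markers was 312 CPM in WT replicate 2 and 1005 CPM, the highest of E14, in WT replicate 5 (249 to 929 CPM in the others), and that of the 3 choroid plexus markers was 18.2 and 376 CPM (0.382 to 443 CPM in the others). The 4 striatum markers went the other way, with 38.98 CPM in WT replicate 2, the highest of E14, and 19.5 CPM in WT replicate 5, the lowest (24.3 to 34.7 CPM in the others), and the 6 inhibitory neuron markers were at 446 and 271 CPM (240 to 571 CPM in the others). The part of these markers in the subunit levels was not tested.

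Grin2a (ENSMUSG00000059003, chr16:9567898-9995560, minus strand, 17933 exonic bases) encodes GluN2A, which gives fast-decaying currents and is the main mature cortical GluN2 subunit beside GluN2B. It changed most of the 7 genes, by a log2 fold change of 6.82 from E14 to P70 (SE 0.17, adjusted p = 6.4e-35, edgeR). At E14 it was the lowest of the family per length, with 0.110, 0.172, 0.0702, 0.0392 and 0.0316 RPKM in WT and 0.0785, 0.0536, 0.0998, 0.0930 and 0.0442 RPKM in Het libraries. These levels rest on 24 to 114 counts per library. At P35 the WT libraries held 8.63, 7.88, 10.3, 9.05 and 8.71 RPKM and the Het libraries 9.35, 8.37, 9.12, 8.92 and 10.1 RPKM. The genotypes overlapped at both ages and the ages did not. Medians over 10 libraries were 0.359 RPKM at E18 (0.297 to 0.514), 2.26 at P7 (1.19 to 2.48) and 8.74 at P70 (7.74 to 11.1). Grin2a rose by similar log2 amounts at each of 3 steps, namely 2.27 (SE 0.17, adjusted p = 3.82e-16), 2.501 (SE 0.14, adjusted p = 6.46e-21) and 2.09 (SE 0.13, adjusted p = 1.89e-19), and the last step gave -0.03 (SE 0.12, adjusted p = 0.921). At P7, WT replicate 2 held 1.19 RPKM and the other 9 libraries 1.97 to 2.48 RPKM. No annotated exon of another gene overlaps those of Grin2a.

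Grin2b (ENSMUSG00000030209, chr6:135713233-136173511, minus strand, 24842 exonic bases) encodes GluN2B, the GluN2 subunit of slower-decaying currents that predominates in embryonic forebrain. Its level rose early and then stayed on a plateau. The WT libraries at E14 held 7.41, 11.2, 7.49, 5.30 and 3.43 RPKM, and the Het libraries 5.77, 6.61, 7.82, 5.41 and 4.87 RPKM. At E18 the values were 15.9, 14.7, 14.2, 16.9 and 19.6 RPKM in WT and 16.2, 16.2, 15.9, 18.3 and 18.5 RPKM in Het libraries. The lowest library of E18 was above the highest of E14, with the genotypes overlapping at both ages. At P7 the WT libraries held 22.3, 12.4, 25.4, 24.9 and 26.7 RPKM and the Het libraries 25.6, 24.7, 28.1, 27.97 and 27.3 RPKM. WT replicate 2, the library with few cortex markers, was the lowest at P7 and lay below every library of E18. Medians were 25.3 RPKM at P35 (19.3 to 28.2) and 23.5 RPKM at P70 (17.2 to 26.9). Grin2b rose by 1.35 on the log2 scale from E14 to E18 (SE 0.12, adjusted p = 2.49e-13) and by 0.56 from E18 to P7 (SE 0.12, adjusted p = 6.82e-05). The step from P7 to P35 was 0.03 (SE 0.12, adjusted p = 0.833), and that from P35 to P70 was -0.12 (SE 0.12, adjusted p = 0.629, all by edgeR). Without WT replicate 2 at P7, the step from P7 to P35 was -0.05.

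The ratio of Grin2b to Grin2a was computed within each library from counts per exonic base, so that it does not depend on library scaling. Its median fell from 92.5 at E14 (58.2 to 135 in 10 libraries) to 44.2 at E18 (32.8 to 64.2), 11.5 at P7 (10.2 to 12.6), 2.76 at P35 (2.45 to 3.12) and 2.60 at P70 (2.22 to 3.06). Ranges of E14 and E18 overlapped slightly, ranges of E18, P7 and P35 lay apart, and ranges of P35 and P70 overlapped. The mean log2 ratio changed by -0.998 from E14 to E18 (adjusted p = 5.33e-05), by -1.96 to P7 (adjusted p = 4e-05), and by -2.05 to P35 (adjusted p = 4e-05), in two-sided permutation tests with 100000 resamples and adjustment over the 4 steps. The unadjusted p of the step from P7 to P35, 1e-05, is the smallest that these resamples can give. From P35 to P70 the change was -0.09 (p = 0.123, the same permutation test). At every age Grin2b exceeded Grin2a per length in all 10 libraries, so transcripts of the GluN2B subunit stayed the more abundant. WT replicate 2 at P7 had low levels of both genes, and its ratio of 10.4 lay within the 10.2 to 12.6 of the other libraries.

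**Figure D2:**
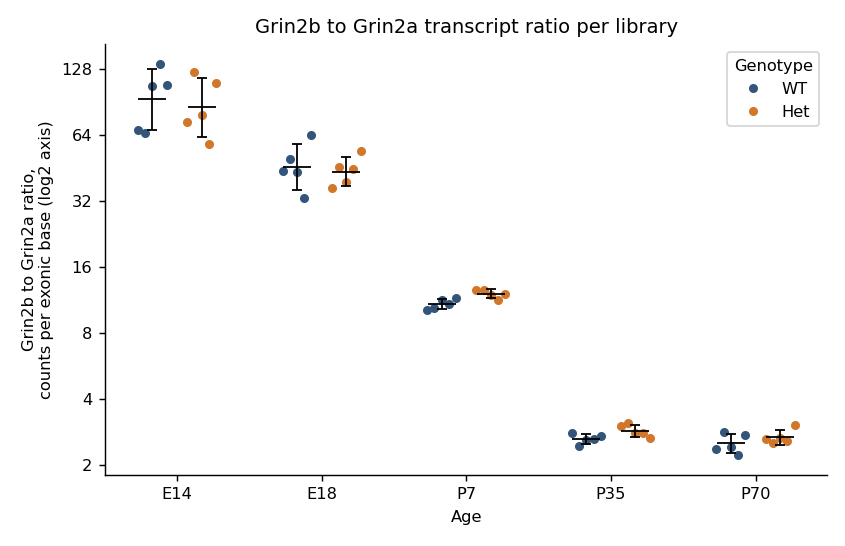
Ratio of Grin2b to Grin2a, as counts per exonic base in each library (log2 axis), by age, with points for WT and Het libraries. The ratio falls from a median of 92.5 at E14 to 2.76 at P35 and is 2.60 at P70.

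Grin2c (ENSMUSG00000020734, chr11:115249169-115267243, minus strand, 5037 exonic bases) encodes GluN2C, a subunit best known from mature cerebellar granule cells and also found in astrocytes. Its level rose late. At P7 the WT libraries held 2.15, 2.49, 0.780, 1.402 and 1.57 RPKM and the Het libraries 0.811, 1.01, 0.642, 2.02 and 1.76 RPKM. At P35 they held 15.5, 15.4, 16.9, 16.8 and 14.1 RPKM in WT and 12.6, 13.7, 14.8, 15.95 and 15.8 RPKM in Het. Every library of P35 was above every library of P7, and the genotypes overlapped at both ages. This step, 3.38 on the log2 scale (SE 0.19, adjusted p = 2.4e-20, edgeR), was the largest single step of any member. The step from P35 to P70 was 0.08 (SE 0.17, adjusted p = 0.835), with a median of 15.9 RPKM at P70 (14.9 to 17.9). Markers of glia also differed between P7 and P35. Over both genotypes, the summed level of the 6 astrocyte markers, all detected, went from 1138 to 1593 CPM at P7 to 3499 to 3847 CPM at P35, and that of the 4 oligodendrocyte markers, all detected, from 114 to 1214 CPM to 4282 to 5967 CPM. Without WT replicate 2, the P7 ranges were 1138 to 1361 CPM and 114 to 170 CPM. The 3 microglia markers went from 30.2 to 38.1 CPM to 72.4 to 83.3 CPM, and the 2 markers of oligodendrocyte precursors were lower at P35, from 127 to 144 CPM to 74.0 to 83.9 CPM. Their part in the level of Grin2c was not tested.

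Before P7 Grin2c was low, with a median of 0.490 RPKM at E14 (0.432 to 0.730, 78 to 139 counts). It rose by 1.03 on the log2 scale from E14 to E18 (SE 0.21, adjusted p = 3.26e-05, edgeR). At E18 the WT libraries held 1.25, 1.47, 0.488, 1.06 and 0.853 RPKM and the Het libraries 1.44, 0.518, 0.538, 1.89 and 1.60 RPKM. The lowest 3 of them, WT replicate 3 and Het replicates 2 and 3, had 54.8, 56.6 and 56.5 CPM of the 4 oligodendrocyte markers. WT replicate 5 (0.853 RPKM) had 56.0 CPM, and the other 6 libraries, at 1.06 to 1.89 RPKM of Grin2c, had 85.0 to 124 CPM, the part of which was not tested. The step from E18 to P7 was 0.39 over both genotypes (SE 0.20, adjusted p = 0.0699) and was not called. It was called in WT libraries alone (0.72, SE 0.27, adjusted p = 0.0196) and not in Het libraries alone (0.05, SE 0.28, adjusted p = 0.878), and the call in WT rested on WT replicate 2 at P7. Without that library, the step was 0.53 in WT (adjusted p = 0.0974) and 0.29 over both genotypes (adjusted p = 0.18). Conversely, the step over both genotypes was called when any 1 of 6 other libraries was left out (0.44 to 0.49, lowest adjusted p = 0.0213), namely WT replicate 2, Het replicate 4 or Het replicate 5 at E18, or WT replicate 3, Het replicate 1 or Het replicate 3 at P7.

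Grin2d (ENSMUSG00000002771, chr7:45831883-45878378, minus strand, 6658 exonic bases) encodes GluN2D, the GluN2 subunit with the slowest decay, which in mature cortex is associated with inhibitory neurons. Its level peaked at P7. The WT libraries of P7 held 20.9, 16.2, 20.3, 18.4 and 22.1 RPKM and the Het libraries 16.9, 17.4, 20.4, 19.1 and 20.5 RPKM. No library of another age exceeded 7.62 RPKM, and the genotypes overlapped at P7. Medians were 2.03 RPKM at E14 (1.38 to 3.70), 5.90 at E18 (5.09 to 7.62), 5.33 at P35 (4.67 to 5.94) and 4.76 at P70 (4.17 to 5.06). Grin2d rose by 1.42 on the log2 scale to E18 (SE 0.11, adjusted p = 7.44e-16) and by 1.68 to P7 (SE 0.10, adjusted p = 7.8e-19), and then fell by 1.86 to P35 (SE 0.11, adjusted p = 1.78e-20, edgeR). The last step was -0.19 (SE 0.10, adjusted p = 0.256). The summed level of the 6 inhibitory neuron markers was 323 to 400 CPM at P7 and 740 to 901 CPM at P35, with all 6 detected. The 2 markers of oligodendrocyte precursors, both detected, were highest at P7 like Grin2d, with a summed 18.04 to 89.4 CPM at E14 (18.04 to 42.3 CPM without Het replicate 2), 56.6 to 96.1 CPM at E18, 127 to 144 CPM at P7, 74.0 to 83.9 CPM at P35 and 61.4 to 73.3 CPM at P70. The part of either set in the level of Grin2d was not tested. Het replicate 2 of E14 was also the highest of its age for 2 endothelium markers (290 CPM, others 49.3 to 98.9), 3 microglia markers (18.1 CPM, others 9.57 to 13.4) and the astrocyte markers (316 CPM, others 235 to 298), and the lowest for the inhibitory neuron markers (240 CPM, others 271 to 571), the oligodendrocyte markers (39.1 CPM, others 39.5 to 55.8) and the thalamus markers (30.2 CPM, others 30.4 to 48.8). Antisense gene Gm45441 shares 9.66% of the exonic bases of Grin2d. At the mean density of Gm45441, the counts on shared bases would be a median of 8.48% of the Grin2d count at P7 and 15.6% at P35. A shared fragment was counted for both genes, so that density can itself include fragments of Grin2d. How many of the Grin2d counts are fragments of Gm45441 is not known.

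Grin3a (ENSMUSG00000039579, chr4:49661611-49845744, minus strand, 12275 exonic bases) encodes GluN3A, a glycine-binding subunit that lowers the calcium permeability and magnesium block of receptors and is known for high levels in early postnatal brain. Its level, like that of Grin2d, peaked at P7. The WT libraries of P7 held 9.08, 8.79, 8.65, 8.77 and 9.14 RPKM and the Het libraries 9.89, 8.71, 9.14, 9.18 and 8.51 RPKM. They were close together, WT replicate 2 included, and above all libraries of other ages. Medians were 1.23 RPKM at E14 (0.788 to 2.55), 4.63 at E18 (4.15 to 7.18), 3.64 at P35 (3.31 to 4.01) and 3.27 at P70 (2.62 to 3.61). Grin3a rose by 1.85 on the log2 scale to E18 (SE 0.12, adjusted p = 8.39e-18) and by 0.87 to P7 (SE 0.12, adjusted p = 5.32e-09), then fell by 1.30 to P35 (SE 0.12, adjusted p = 1.18e-13, edgeR). The last step was -0.17 (SE 0.12, adjusted p = 0.393). The oligodendrocyte precursor markers given beside Grin2d were also highest at P7 (127 to 144 CPM), and their part in the level of Grin3a was not tested. At E18, WT replicate 4 held 7.18 RPKM of Grin3a and was also the highest library for Grin2a (0.514 RPKM) and Grin2d (7.62 RPKM). The same library had the lowest summed level of the 3 cortex markers of E18 (453 CPM, others 541 to 941) and the highest summed astrocyte markers (510 CPM, others 286 to 456). It was also highest for the 3 thalamus markers (34.6 CPM, others 12.6 to 21.7) and the 4 blood markers (435 CPM, others 127 to 357). The oligodendrocyte precursor markers were highest in it too (96.1 CPM, others 56.6 to 94.1). It held 182 CPM of the 3 choroid plexus markers, against 227 CPM in WT replicate 3 and 0.897 to 7.34 CPM in the other libraries. The part of these markers was not tested.

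Grin3b (ENSMUSG00000035745, chr10:79970715-79977190, plus strand, 3296 exonic bases) encodes GluN3B, which is best known from motor neurons of brainstem and spinal cord. It was the only member called lower at P70 than at E14 (log2 fold change -0.55, SE 0.071, adjusted p = 1.32e-09, edgeR). The WT libraries of E14 held 3.08, 3.18, 3.16, 3.28 and 2.70 RPKM and the Het libraries 3.42, 3.12, 3.17, 2.90 and 2.82 RPKM. At P70 the values were 2.19, 2.62, 2.33, 2.21 and 1.86 RPKM in WT and 1.88, 2.12, 2.09, 2.21 and 1.56 RPKM in Het libraries. All libraries of P70 were below all libraries of E14. The gene fell by 0.31 on the log2 scale from E14 to E18 (SE 0.070, adjusted p = 0.000127) and by 0.31 from E18 to P7 (SE 0.071, adjusted p = 0.000135, edgeR). Steps of -0.08 (SE 0.072, adjusted p = 0.291) to P35 and 0.15 (SE 0.072, adjusted p = 0.183) to P70 were not called. The step to P35 depended on the scaling, being -0.16 and called with library size only (adjusted p = 0.0293, edgeR), and it was -0.11 to -0.046 when a library was left out, and not called in any of those fits. These values cannot be assigned to Grin3b with certainty. The protein-coding gene Tmem259 lies on the opposite strand and shares 32.1% of the exonic bases of Grin3b, and a fragment on shared exons was counted for both. Tmem259 had medians of 28.2 to 30.3 RPKM at the 5 ages, and at its mean density 1026 to 1236 counts would fall on the shared bases, whereas Grin3b had medians of 227 to 396 counts in all. Since a shared fragment adds to both counts, the mean density of Tmem259 cannot hold over the shared bases, and how many of the Grin3b counts are fragments of Tmem259 is not known.

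Within the GluN2 genes, the make-up of the transcript pool differed between ages. Of the summed Grin2a to Grin2d RPKM, Grin2b made up 68.9% ± 3.71 (SD, n = 10) in E14 and 68.9% ± 2.29 in E18 libraries, then 51.4% ± 5.29 by P7, 45.8% ± 3.08 by P35 and 43.7% ± 2.93 by P70. The share of Grin2d was 24.0% ± 3.43 at E14 and 25.0% ± 2.40 at E18, reached 40.9% ± 3.93 at P7 and was 9.75% ± 1.03 at P35. Grin2b and Grin2d together thus made up most of the Grin2 level at E14, E18 and P7. From E14 to E18 the mean share of Grin2a went from 0.805% ± 0.239 to 1.56% ± 0.248 and that of Grin2c from 6.31% ± 2.26 to 4.56% ± 1.94. Grin2c had 3.24% ± 1.89 at P7 and 27.9% ± 2.49 at P35, and Grin2a 4.48% ± 0.333 at P7 and 16.6% ± 0.534 at P35, so that by length Grin2c was the second most abundant of the 4 genes at P35 and P70. WT replicate 2 at P7 had the lowest share of Grin2b (38.3%) and the highest share of Grin2d (50.3%) and of Grin2c (7.72%) among its age. The ratio of Grin1 to the summed Grin2 level went from 0.371 ± 0.0227 (SD, n = 10) in E14 libraries to 0.493 ± 0.0420 by E18, 0.769 ± 0.0843 by P7 and 1.31 ± 0.0939 by P35, and was 1.27 ± 0.113 in P70 libraries. Ranges of consecutive ages lay apart up to P35, except that E14 (0.350 to 0.420) and E18 (0.403 to 0.558) overlapped. These shares and ratios describe transcripts and carry no test. They rest on merged exon lengths. For Grin1 that length (9700 bases) was well above the 4276 bases of its transcript with the longest coding sequence, so the size of its ratio depends on it.

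**Figure D3:**
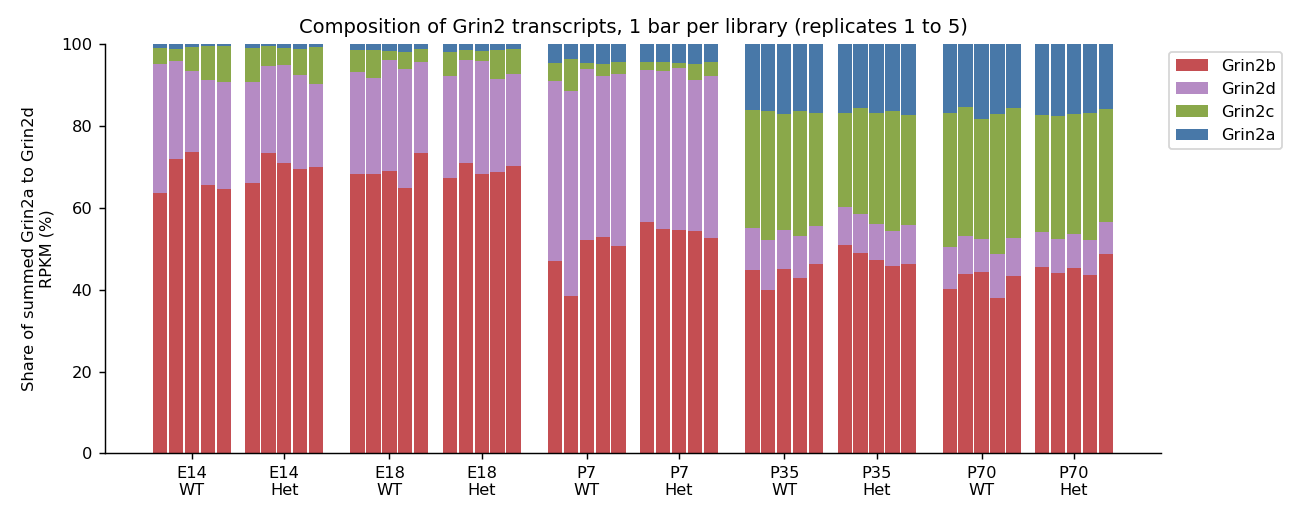
Share of each gene in the summed Grin2a to Grin2d level (percent of RPKM), 1 bar per library in the order of replicates, by age and genotype. Grin2b and Grin2d fill most of each bar up to P7, and Grin2c and Grin2a take 27.9% and 16.6% on average at P35.

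The comparison of Het with WT asks whether loss of 1 copy of Setd1a, a histone H3 lysine methyltransferase gene, goes with a change in subunit transcripts. With age as a covariate over all 50 libraries, edgeR called 0 of the 7 members, where 4.43% of tested genes were called. At an unadjusted p under 0.05 there was 1 member (Grin2d), where 14.5% of tested genes were. DESeq2 gave the same counts of members and called 5.04% of tested genes. Limma-voom called 0 members, with 0 at an unadjusted p under 0.05, and 4.61% of tested genes. The log2 fold change of Het over WT was -0.14 for Grin2d (SE 0.066, adjusted p = 0.307, edgeR, 95% confidence interval -0.271 to -0.0075). It was -0.004 for Grin1 (interval -0.125 to 0.117), 0.06 for Grin2a, 0.09 for Grin2b (-0.065 to 0.243), -0.08 for Grin2c (-0.318 to 0.157), -0.02 for Grin3a and -0.03 for Grin3b (-0.124 to 0.056). The intervals of all members other than Grin2d thus included 0, which does not show that the levels were equal. The age by genotype interaction was called for 0 members, with 0 at an unadjusted p under 0.05, and edgeR called 0% of tested genes, of which 1098 (6.72%) had an unadjusted p under 0.05.

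At single ages edgeR also called 0 members at each of the 5 ages, where the tested genes called were 0.129% for E14, 0.11% for E18, 0.735% for P7, 0% for P35 and 0.233% for P70. The P7 share rested on WT replicate 2, without which 7 genes in place of 120 were called (0.0429%), and leaving out 1 library gave 1 to 740 genes at E14, 7 to 55 at E18, 7 to 211 at P7, 0 to 3 at P35 and 8 to 104 at P70. With all libraries, edgeR called 21 genes at E14, 18 at E18 and 38 at P70, and DESeq2 called 114, 111 and 77. At an unadjusted p under 0.05 there was 1 member at E14 (Grin2d), where 11.6% of tested genes were, and 0 at the other ages, where the shares were 11.4% for E18, 8.86% for P7, 3.37% (550 genes) for P35 and 6.55% for P70. DESeq2 called 11 genes at P35. The 35 values, 7 genes at 5 ages, ran from -0.43 (Grin2c at P7) to 0.26 (Grin2b at P7) on the log2 scale, and the smallest adjusted p was 0.277. That value belonged to Grin2d at E14, with 3.67, 3.70, 2.00, 2.06 and 1.38 RPKM in WT and 2.17, 1.91, 2.64, 1.77 and 1.41 RPKM in Het libraries. WT replicates 1 and 2 were the highest and the other libraries of both genotypes overlapped. The same pair of libraries had the highest summed level of the 6 inhibitory neuron markers at E14 (571 and 446 CPM, others 240 to 424 CPM). They also had the lowest summed level of the 3 cortex markers at E14 (636 and 739 CPM, others 767 to 859 CPM). The part of either set in the difference was not tested. The log2 fold change was -0.37 (SE 0.15, adjusted p = 0.277, interval -0.679 to -0.063). This value depended on single WT libraries, being -0.21 without WT replicate 1 (adjusted p = 0.773) and -0.20 without WT replicate 2 (adjusted p = 0.813). WT replicate 5 held the lowest WT value and the Xist counts. Without it, the value was -0.53 (adjusted p = 0.0274), and the number of genes called at E14 went from 21 to 740, or 4.53% of tested genes. Without both libraries with Xist counts, an alternative chosen after seeing the data, Grin2d (-0.53, adjusted p = 0.0249) and Grin3a (-0.50, adjusted p = 0.0488) were called at E14 along with 4.86% of tested genes. With all libraries, the value of Grin3a at E14 was -0.33 (adjusted p = 0.461), and it was -0.07 without WT replicate 2 (adjusted p = 0.98).

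At P70 Grin2d was the one member whose genotypes did not overlap. WT libraries held 5.06, 4.84, 4.85, 4.88 and 4.88 RPKM, and Het libraries 4.42, 4.27, 4.28, 4.68 and 4.17 RPKM. Every Het library lay below every WT library, as 1 of 7 members, in an age at which 1.79% of tested genes had genotypes that did not overlap. The difference was small, with a log2 fold change of -0.17 (SE 0.15, adjusted p = 1.00, edgeR), and was not called. For Grin2a at P70, WT replicate 3 held 11.06 RPKM, above the Het libraries (8.58 to 9.36 RPKM), whereas the other 4 WT libraries (7.74 to 8.29 RPKM) lay below them. At P7 the largest positive value was that of Grin2b, 0.26 (SE 0.17, adjusted p = 0.738), for which Het libraries held 24.7 to 28.1 RPKM and WT libraries 12.4 to 26.7 RPKM. It was 0.11 without WT replicate 2 at P7 and so depended on that library. The value of Grin2c at P7 was -0.43 (SE 0.27, adjusted p = 0.715), with overlapping genotypes. It was -0.24 without WT replicate 2, -0.27 without Het replicate 3 and -0.67 without Het replicate 4, and was not called without any 1 of the 10 libraries (lowest adjusted p = 0.347).

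**Figure D4:**
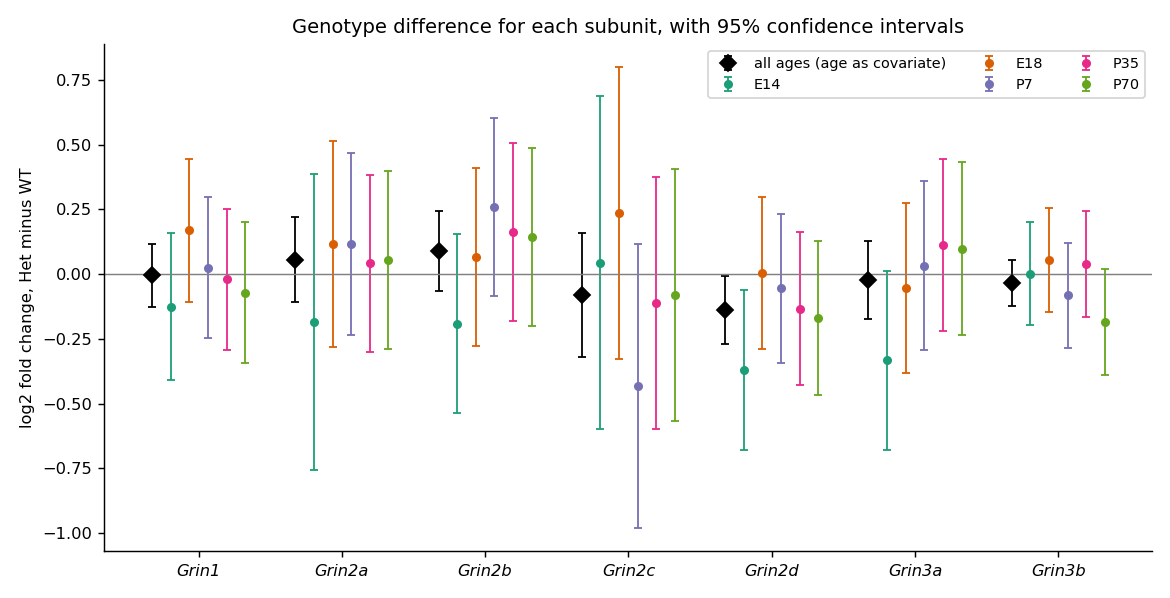
Log2 fold change of Het over WT for each subunit gene, over all ages (diamonds) and at each age (circles), with 95% confidence intervals from edgeR. The values over all ages lie between -0.14 and 0.09, and the interval of Grin2d over all ages ends just below 0.

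The Grin2b to Grin2a ratio was also compared between genotypes. At P7 the ratio was 10.2, 10.4, 11.3, 10.8 and 11.6 in WT and 12.6, 12.6, 11.9, 11.3 and 12.0 in Het libraries. At P35 it was 2.79, 2.45, 2.62, 2.62 and 2.73 in WT and 3.01, 3.12, 2.81, 2.80 and 2.66 in Het libraries. Het values were mostly the higher at both ages, and the genotypes overlapped at both. The Het ratio was 1.11-fold that of WT at P7 (p = 0.0238, adjusted p = 0.0992) and 1.09-fold at P35 (p = 0.0397, adjusted p = 0.0992) in two-sided exact permutation tests over all regroupings of 5 and 5 libraries, adjusted over 5 ages, and neither passed the adjustment. Fold differences were 0.922 at E14 (p = 0.722), 0.954 at E18 (p = 0.73) and 1.07 at P70 (p = 0.302) in the same exact test. Over all ages, the permutation test within ages gave a difference of 0.04 on the log2 scale (p = 0.602).

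Around the receptor, 70 genes that supply its agonists, anchor it, modify it or act downstream were followed, and all 70 were tested. From E14 to P70, 44 were called higher and 23 lower, a share called of 67 in 70. Of all tested genes 89.8% were called, 44.7% higher and 45.1% lower. At single steps 63, 60, 55 and 5 of the 70 were called, beside 73.4%, 76.1%, 76.1% and 9.74% of all tested genes. Calcium-dependent effectors were called higher in 10 of 11 cases and lower in 0, with a median log2 fold change of 1.67. The largest changes were those of Rasgrf2 (5.45, SE 0.12, adjusted p = 3.34e-37) and Rasgrf1 (4.36, SE 0.14, adjusted p = 1.93e-30, edgeR), exchange factors that link calcium entry to Ras signalling. Of 18 kinases and phosphatases, 12 were called higher and 6 lower, led by Ptk2b (7.28, SE 0.20), a calcium-activated tyrosine kinase, and Camk2a (5.89, SE 0.12), the abundant postsynaptic kinase. Of 14 scaffold and trafficking genes, 11 were called higher and 3 lower, led by the kinesin gene Kif17 (4.54, SE 0.10) and by Lin7b (3.95, SE 0.10).

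Among the 6 genes of glutamate release and uptake, 5 were called higher and 1 lower, led by the vesicular transporter gene Slc17a7 (4.90, SE 0.15) and the glial transporter gene Slc1a2 (4.81, SE 0.083), which is also one of the astrocyte markers. Genes of co-agonist supply and clearance went both ways, with 5 of 11 called higher, 4 lower and a median of 0.02. The largest called changes among them were those of Dao (1.58, SE 0.54, adjusted p = 0.0061, edgeR), encoding D-amino acid oxidase, and Slc7a10 (1.55, SE 0.057), encoding a transporter of glycine and D-serine. Dao was close to the limit of detection, with 0 to 0.0428 RPKM in libraries of E14 and 0.0101 to 0.0971 RPKM in those of P70, which overlapped. Transcriptional regulators and upstream receptors were called lower in 9 of 10 cases, led by Ezh2 (-5.18, SE 0.11), a Polycomb methyltransferase, and Ephb2 (-3.25, SE 0.083), an ephrin receptor. The 5 progenitor markers, all detected, also differed between these ages, with a summed 686 to 965 CPM at E14 and 62.5 to 86.6 CPM at P70, and their part was not tested. By genotype with age as a covariate, edgeR called 0 of the 70, where 4.43% of tested genes were called. At an unadjusted p under 0.05 there were 2 of the 70, against 14.5% of tested genes. These were Fyn (0.04, SE 0.018, adjusted p = 0.252), a kinase that phosphorylates GluN2B, and Ephb2 (-0.09, SE 0.047, adjusted p = 0.345).

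**Figure D5:**
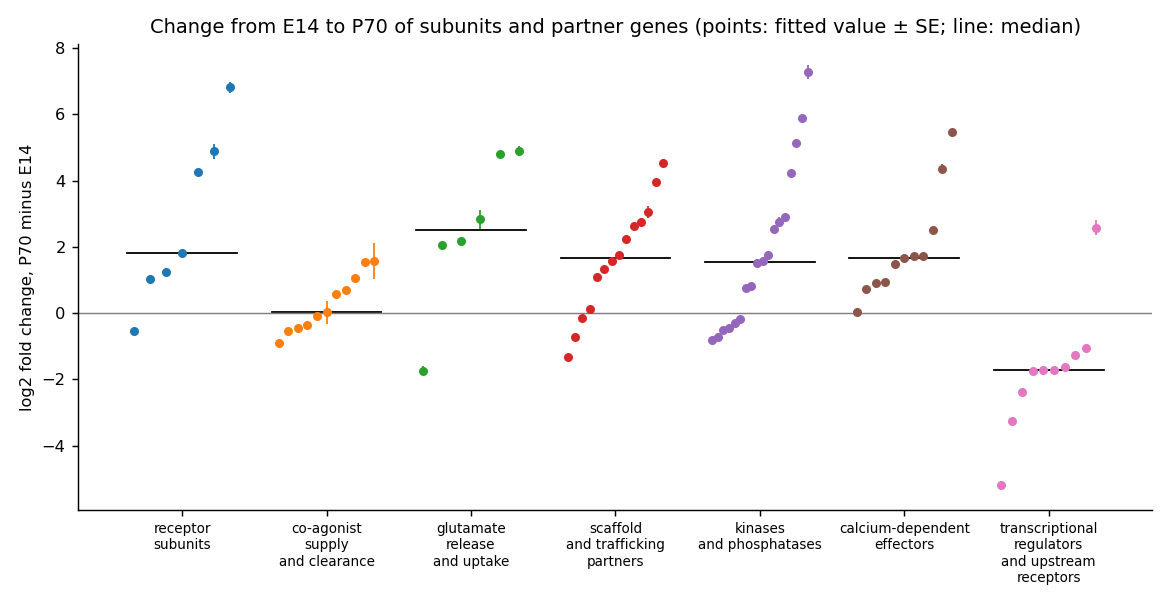
Log2 fold change from E14 to P70 of the 7 subunit genes and of 70 partner genes by role, with points for fitted values, whiskers for SE and a line for the median of each role. Medians are 1.67 for calcium-dependent effectors and -1.72 for transcriptional regulators and upstream receptors.

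Likeness of course was measured as the Pearson correlation of mean log2 CPM over the 10 groups of age and genotype with each of 14168 protein-coding genes, and it is given as a description because the groups share the sequencing batch and the developmental trend, and both genes of a pair are read from the same libraries. Nearest to Grin1 were Wscd2 (r = 0.9997), Tmem151a (0.9996) and the synaptic vesicle gene Sv2a (0.9995). Nearest to Grin2a were Pter (0.9997), the synaptic vesicle gene Sv2b (0.9994) and Ephx4 (0.9994), and nearest to Grin2b were Cntnap5b (0.9958), Caln1 (0.9951) and Gucy1b1 (0.9946), a subunit gene of soluble guanylate cyclase. The nearest to Grin2c were Hapln2 (0.9993), which is known from the nodes of myelinated axons, Fn3k (0.9992) and the metallothionein gene Mt1 (0.9987). Nearest to Grin2d were Met (0.9916), a growth factor receptor gene, Hsbp1 (0.9911) and Impdh1 (0.9906). For Grin3a they were the clustered protocadherin genes Pcdha3 (0.9965), Pcdha2 (0.9964) and Pcdha11 (0.9963), which share constant exons, so that their counts are not separate. Grin3b had lower values, with Eral1 (0.9884), Il4i1 (0.9827) and Bbs12 (0.9824). Between members, the group means of Grin1 and Grin2a had r = 0.9944 over the 10 groups, those of Grin2d and Grin3a r = 0.9644, and those of Grin1 and Grin3b r = -0.947.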

How the data were processed

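Members, gene lists and tests were chosen with earlier results of these data known. The authors trimmed reads with Trimmomatic, aligned them to GRCm38 with STAR and counted fragments per gene with featureCounts (version 1.4.6-p2 per the file headers), and the deposited values are raw counts on exons, without strand, in which a fragment over several genes was counted for each. Groups and replicate numbers came from the sample titles. Symbols, positions and gene types came from the GENCODE vM21 annotation, which holds 55141 of the 55487 genes.

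Protein-coding genes were kept by edgeR's filterByExpr (minimum count 10, smallest group 5 libraries). Counts were TMM-scaled and fitted by edgeR 4.0.16 (R 4.3.3, limma 3.58.1) with its quasi-likelihood test, Benjamini-Hochberg adjustment over all 16330 genes and a threshold of 0.05. The genotype effect had age as a covariate, and other contrasts came from a fit of the 10 groups. The study used limma, which was an alternative here (limma-voom), as was DESeq2 1.42.0. RPKM used exonic bases of merged exons. Log2 CPM used a prior count of 2. The ratio was tested by permutation, exact within an age (the smallest p of 5 against 5 libraries is 0.00794). Only the edgeR test of genotype with age as a covariate was checked on simulated data. Totals of 35507165 to 43907318 counts leave counting error small except for genes with few counts, where the lowest were 24 for Grin2a at E14 and 78 for Grin2c. All 7 members were named. Of the 70 partner genes, those called by genotype were to be named, otherwise the 2 with the smallest p, and by age the 2 with the largest change from E14 to P70 in each role. The 3 genes most correlated with each member were named among those with a mean log2 CPM of at least 0. Alternatives were other scaling, other filters, limma-voom, DESeq2, a covariate for libraries with over 1000 Xist counts, single genotypes, a replicate block and leaving out each library. Of the cortex markers listed, 3 were summed, a choice made after seeing the data, and some items are not reported here.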

Additional observations from a re-analysis of the deposited data

Results flagged for a closer look

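In groups of 5 libraries, a library was listed when its gap to the nearest other value exceeded 0.71 of the range of the group, which chance reaches in about 1 in 20 groups. Of 80 groups, 6 held such a library. For Grin2a at P7, WT replicate 2 was lowest with 1.188 RPKM (others 2.20 to 2.304), which is the library with few cortex markers. For Grin2a at P70, WT replicate 3 was highest with 11.06 RPKM (others 7.736 to 8.29). Among the 10 libraries of P70 it was also lowest for the 4 striatum markers (49.7 CPM, others 101 to 296), the 4 oligodendrocyte markers (3124 CPM, others 3501 to 4224), the 6 inhibitory neuron markers (738 CPM, others 773 to 941) and the 5 progenitor markers (62.5 CPM, others 66.9 to 86.6). It was highest for the 3 cortex markers (297 CPM, others 223 to 278), the 6 astrocyte markers (3946 CPM, others 3342 to 3775) and the 3 thalamus markers (71.9 CPM, others 56.5 to 66.5), and their part was not tested. For Grin2d at P70, WT replicate 1 was highest with 5.062 RPKM (others 4.839 to 4.885), in the age at which the genotypes did not overlap. For Grin3a at E18, WT replicate 4 was highest with 7.184 RPKM (others 4.149 to 4.782). For Grin3b at E18, Het replicate 1 was lowest with 2.102 RPKM (others 2.58 to 2.753). For the Grin2b to Grin2a ratio at P70, Het replicate 5 was highest with 3.056 (others 2.519 to 2.655).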

How the results depend on the processing

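The numbers of members called by age step and by genotype kept within 1.5 times of those reported under every alternative run, except at E14 by genotype, where 2 members were called without both libraries with Xist counts (chosen after seeing the data) and 0 to 1 when a library was left out (1 without WT replicate 5). Values near 0 changed sign. The genotype value of Grin1 was 0.0013 with DESeq2's size factors, 0.00037 with a minimum of 10 CPM, 0.011 with the replicate block, 0.019 with limma-voom and 0.00069 with DESeq2, and -0.029 to 0.043 when a library was left out. That of Grin3a was 0.012 with limma-voom and -0.046 to 0.029 when a library was left out. Grin2b from P7 to P35 gave -0.045 with library size only, -0.019 in Het libraries, and -0.046 to 0.065 when a library was left out. The genotype value of Grin2a at P7 was -0.025 to 0.16, and the ratio between genotypes gave -0.25 to 0.021 at E14 and -0.19 to 0.055 at E18. The ratio from P35 to P70 was -0.11 to -0.061, and passed the adjustment without Het replicate 5 of P70 (adjusted p = 0.0329, permutation test). Grin2c from E18 to P7 was called with DESeq2's size factors (0.42, adjusted p = 0.0477), a minimum of 10 CPM (0.43, adjusted p = 0.0431) and without both libraries with Xist counts (0.47, adjusted p = 0.0338), and Grin3b from P7 to P35 with library size only (-0.16, adjusted p = 0.0293). The cause was not tested. Same-numbered libraries were not treated as pairs, since only 9 of 25 correlations of their deviations exceeded 0.1 (-0.20 to 0.46). The replicate block called 0 members by genotype overall and at each age, as without it (4.81% of tested genes with age as a covariate, and 0.104%, 0.227%, 0.122%, 0.0184% and 0.239% in order of age), and gave the ratio an adjusted p = 0.312 at P7 and at P35 (exact sign-flip permutation tests), which with 5 pairs cannot give a p below 0.0625 at a single age, so that this test could not pass. Few counts limit Grin2a and Grin2c at E14 and Dao at all ages.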
